A study of Bos taurus with 28 samples.

Results

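Bovine conceptuses of day 16 were compared with conceptuses of day 13, the step in which the ovoid conceptus becomes a filament. All libraries labelled with these days were taken, except 1 of day 16 whose file carries the title of a day 19 sample; 9 of the 28 libraries of the series remained. Day 16 replicates 2 and 3 differed by little more than sampling noise (mean chi-square 1.19 per transcript over 15908 transcripts, against 5.38 to 18.0 in the 5 other pairs of that day) and were averaged into 1 sample. The comparison therefore rests on 8 replicates, 5 of day 13 and 3 of day 16. One gene expression value per transcript, in RPKM (reads scaled to transcript length and to the library's total), was measured by mRNA sequencing in each.

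Both groups came from synchronised crossbred beef heifers of about 18 months, mostly of Charolais and Limousin cross, that were all inseminated with semen of a single bull. Day 13 stands for the ovoid conceptus at the start of elongation, and day 16 for the filamentous conceptus at maternal recognition of pregnancy. By the labels' protocols, each library of either day is 1 conceptus of a heifer that was not superovulated. The sample characteristics of day 13 state the opposite, a pool and superovulation, while those of day 16 state neither; which of the labels is right for day 13 was not tested. Polyadenylated RNA was taken directly from day 13 conceptuses, but from purified total RNA on day 16, so stage and RNA preparation cannot be told apart in any result given here. Whether conceptuses of a day shared a heifer is not stated, and p-values measure only the spread between these samples. These are whole conceptuses, in which fewer cells of a type and less RNA per cell cannot be told apart. Days 7 and 10, used below only for levels on other days, are superovulated pools. Levels on those days thus differ from days 13 and 16 in more than stage.

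Elongation is the phase in which the ruminant conceptus, still free in the uterus, grows from an ovoid sac into a long thread, mostly by expansion of the trophectoderm and the underlying endoderm. The trophectoderm is the outer epithelium that will form the fetal part of the placenta. In cattle it secretes interferon tau, the signal that keeps the corpus luteum working and so maintains pregnancy. The embryonic disc gastrulates during the same days. The files name transcripts by Ensembl bovine identifiers alone, and none of these matched the gene table used here. The levels of interferon tau, of trophectoderm markers and of markers of maternal cells are therefore not analysed here, and the labelled stage was not checked against marker genes.

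The libraries of the 2 days were set apart in how many transcripts were read and in how reads were spread over them. Total reads were 6500130, 5938113, 4636213, 5367711 and 1232705 in day 13 replicates 1 to 5, and 1838964, 7965609 and 2016124 in day 16 replicate 1, replicates 2 and 3 together, and replicate 4. At an equal depth of 1232705 reads, 16112, 16154, 16068, 16138 and 14024 transcripts had a read in the 5 day 13 replicates. The 3 day 16 replicates had 19061, 18348 and 19829, all above day 13 (15699 ± 937 against 19079 ± 741, SD; two-sided exact permutation test, p = 0.0357, the lowest that 5 against 3 allow; adjusted p = 0.0476 over 4 measures). The 100 most abundant transcripts held 20.6 ± 1.28% of the reads of a day 13 replicate and 26.6 ± 2.46% of those of a day 16 replicate, and the 2 ranges did not meet (p = 0.0357 by the exact permutation test; adjusted p = 0.0476). Day 16 libraries thus showed more transcripts and, at once, a larger share of reads in the most abundant ones.

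Transcripts under 300 nucleotides took 1.04 ± 0.554% of the reads on day 13 and 0.378 ± 0.0341% on day 16 (exact permutation test, p = 0.0357; adjusted p = 0.0476). Whether this passes depends on how the exact test counts. These p-values take the smaller tail 2 times, a convention adopted after p-values of another had been seen; that one, which counts regroupings with a difference at least as large in size, gave p = 0.0714 and adjusted p = 0.0952 for this share in the exact permutation test. The 2 measures above passed under both, with adjusted p = 0.0357 under the convention run first. The share is therefore not counted as changed. The difference was carried by 1 transcript of 92 nucleotides: without it the shares were 0.231% and 0.239%, and the direction turned (exact permutation test, p = 0.714). The mean length of the transcript behind a read was 2509 ± 135 nucleotides on day 13 and 2307 ± 9.44 on day 16, which did not pass the test (exact permutation test, p = 0.107; adjusted p = 0.107). For mean length the day 13 replicates ran from 2297 to 2666 nucleotides, and the lowest of them overlapped the day 16 range of 2297 to 2313.

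Day 13 replicate 5 stood apart from the other day 13 replicates. At equal depth, Pearson correlations of log2 values were 0.945 to 0.963 among replicates 1 to 4, but 0.838 to 0.842 between replicate 5 and each of them. With the day 16 libraries, replicate 5 correlated at 0.794 to 0.829 and replicates 1 to 4 at 0.811 to 0.874. Replicate 5 thus correlated less with replicates 1 to 4 than they did with each other, and no better with day 16. These correlations do not give its place between the days. In a principal component analysis of the tested transcripts, the leading component (48.7% of the variance) ran from replicates 1 to 4 of day 13, at -78.3 to -67.0, to the day 16 replicates, at 79.9 to 100.96. Replicate 5 lay between them at 16.1, and alone set the next component (28.4%), at -154 against 14.3 to 34.4 in all others. It lay outside the range of the other 7 replicates in 50.3% of the tested transcripts, against 15.3 to 24.2% for each other replicate. These correlations are across transcripts and describe the libraries. The main counts are given with and without replicate 5; the 4 named transcripts keep their calls without it.

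In all, 15671 of 28054 transcripts (55.9%) reached at least 1 RPKM in at least 3 replicates of either day and were tested. Of these, 2924 (18.7%) changed between day 13 and day 16 (limma on log2(RPKM + 1); p adjusted by Benjamini-Hochberg under 0.05, with a log2 change of at least 1 in size). More rose than fell: 1881 (12.0%) were higher on day 16 and 1043 (6.66%) were lower. This excess of rises was small without day 13 replicate 5, at 2527 higher and 2221 lower, and with replicate weights, at 2554 and 2312. With day 16 replicate 5 kept as labelled it was 1335 and 1299. Rises were also the larger changes. The median log2 change was 2.07 among transcripts that rose and -1.60 among those that fell, and a log2 change of 4 or more in size was seen in 134 rises but 19 falls; without day 13 replicate 5 the medians were 1.91 and -1.44, and the counts 182 and 25. Among the risen, 327 had no read on day 13, and these were all of the 327 tested transcripts without one. The filter asks for all 3 replicates on day 16 but for 3 of 5 on day 13. The calls of these 327 were thus largely set by the filter. With them set to the bound that 3 reads over the whole day would give, the median rise was 2.26. The bound is a ratio without the pseudocount, so this median mixes 2 scales. Of the fallen, 16 had no read on day 16, among 62 tested transcripts without one there. With their bounds the median stayed at -1.60. The median change over all tested transcripts was -0.09.

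**Figure D1:**
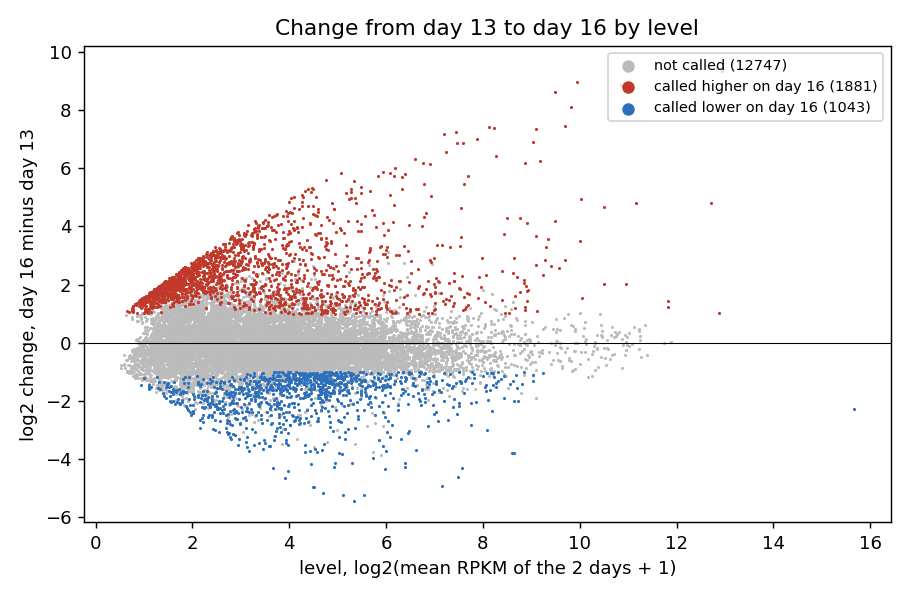
Log2 change from day 13 to day 16 (vertical) against level (horizontal, log2 of the mean RPKM of the 2 days plus 1) for the 15671 tested transcripts, 1 point each, coloured by call. The 1881 risen transcripts reach a change of 9.46 and crowd the upper edge at low levels, whereas the deepest of the 1043 falls is -5.42.

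The balance of rises and falls differed with the level. Of the 12125 transcripts that passed the filter on both days, 742 rose (6.12%) and 797 fell (6.57%). The other 1139 rises were among 1550 transcripts that passed through day 16 alone, and 246 falls were among 1996 that passed through day 13 alone. A transcript that passes through 1 day only is high on that day by construction and can hardly change the other way, so this split is a description and supports nothing on the balance. With a stricter filter of 5 RPKM, 967 rose and 955 fell among 11067 transcripts. By mean level over the 2 days, 18.7% of 4737 transcripts under 5 RPKM rose and 2.91% fell. The filter bears on this class too, and it asks for all 3 replicates on day 16 but for 3 of 5 on day 13. Of the transcripts that passed through day 16 alone 73.5% rose, and of those through day 13 alone 12.3% fell. The shares under 5 RPKM are therefore a description as well. From 5 to 50 RPKM the shares were 8.81% and 8.11% of 8779, and above 50 RPKM they were 10.3% and 8.96% of 2155. In the 2 higher classes rises and falls were thus close to balance. Without day 13 replicate 5, 24.3% rose and 9.74% fell under 5 RPKM, 12.8% and 15.5% from 5 to 50 RPKM, and 11.8% and 18.7% above 50 RPKM, so that falls were the more frequent in both higher classes.

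Rises were also more frequent among short transcripts. In the shortest quartile by length (up to 1100 nucleotides) 17.3% rose and 5.64% fell, and in the longest (over 2590 nucleotides) 9.09% rose and 8.53% fell. The median length was 1473 nucleotides for the risen, 1922 for the fallen and 1758 for all tested. Without day 13 replicate 5 the relation held for rises (22.0% in the shortest quartile, 12.9% in the longest) but turned for falls (17.2% and 12.6%), and the fallen had a median length of 1614 nucleotides. Precision moved with length too: the median standard error of the log2 change was 0.50 in the shortest quartile, at a median of 254 reads over all replicates, and 0.37 in the longest, at 1280 reads. The part of depth and level in the relation with length was not tested.

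**Figure D2:**
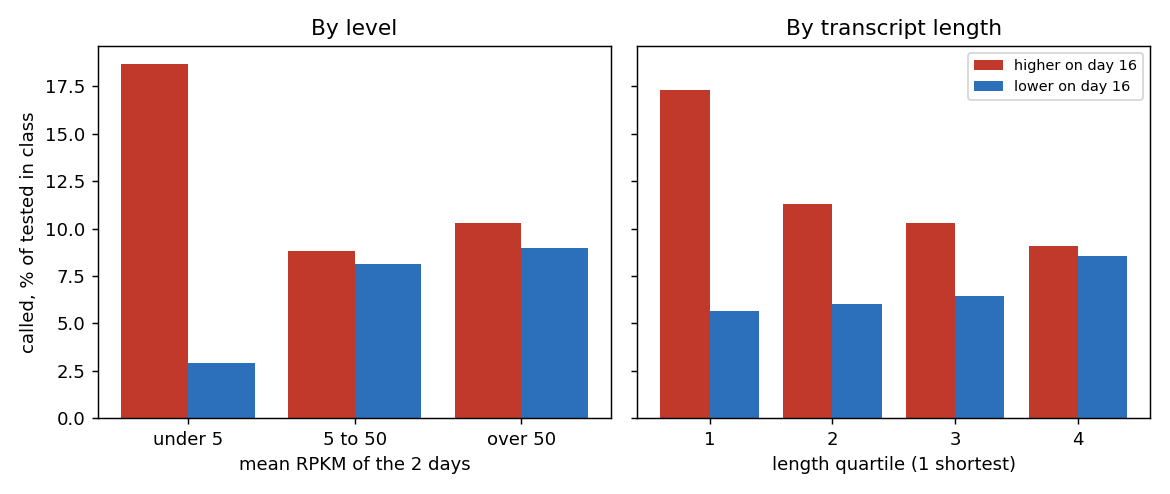
Share of tested transcripts called higher (red) or lower (blue) on day 16, in % of each class, by mean RPKM of the 2 days (left) and by quartile of transcript length (right). Below 5 RPKM, where the filter bears on the balance, the share of rises is 18.7% against 2.91% of falls. In the longest quartile it is 9.09% against 8.53%.

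A set of 693 risen transcripts (36.8% of the risen) lay under 1 RPKM in every day 13 replicate. On day 16 they reached a median of 4.08 RPKM (quartiles 2.74 and 7.23), and 2 of them reached 50 RPKM. The other 1188 risen transcripts had a median of 21.0 RPKM on day 16, and 320 of them reached 50 RPKM. Most of the 693 were thus of low level on day 16. They were not all unread before it: 327 of them had no read on day 13, 57 none on day 10 and 58 none on day 7. Without day 13 replicate 5, 961 of the 2527 risen (38.0%) were under 1 RPKM in every other day 13 replicate. Of the 693, 139 (20.1%) stood at 1 RPKM or more in at least 3 of the 4 day 19 replicates, against 83.5% of all tested transcripts. On day 7 it was 121 (17.5%, against 85.9% of all tested), and on day 10 it was 204 (29.4%, against 91.5%). The 693 passed the filter through day 16 alone, whereas 77.4% of all tested passed on both days. A lower presence on other days can thus follow from how the set was picked, and these shares are a description. The number of these transcripts goes with the higher count of transcripts read on day 16 at equal depth, given above. The part of RNA preparation in it cannot be told apart from that of stage.

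In the opposite direction, 85 of the fallen transcripts (8.15%) lay under 1 RPKM in every day 16 replicate, and 797 (76.4%) stayed at 1 RPKM or more in all replicates of both days. Of the 85, 10 (11.8%) were at 1 RPKM or more in at least 3 day 19 replicates, against 83.5% of all tested. On day 7 it was 46 (54.1%, against 85.9% of all tested) and on day 10 it was 72 (84.7%, against 91.5%). The 85 passed the filter through day 13 alone, so these contrasts with all tested can also follow from the choice. Without day 13 replicate 5, 205 of 2221 falls (9.23%) were under 1 RPKM in every day 16 replicate. Falls were mostly reductions of transcripts that remained present, as most tested transcripts did: 77.4% of all tested passed the filter on both days, a looser measure. Of the risen, 559 (29.7%) were at 1 RPKM or more in all replicates of both days.

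The rises took up a large part of the library. The 1881 risen transcripts held 3.90, 3.29, 3.14, 3.42 and 9.43% of the reads in day 13 replicates 1 to 5, and 21.5, 26.9 and 24.8% in the 3 day 16 replicates. The 1043 fallen transcripts held 12.5 to 14.6% of the reads on day 13 and 3.69 to 4.36% on day 16. These shares follow from how the sets were chosen and are given as a description. Among the 100 transcripts with the highest mean RPKM on day 16, 31 had risen and 1 had fallen, against 12.0% and 6.66% of all tested. A list picked by a high day 16 level favours rises by construction. Among the 100 highest of day 13, a choice that favours falls, 7 had risen and 1 had fallen. The lists shared 70 transcripts, so the most abundant transcripts were largely retained. The part of the choice by day 16 level in the 31 rises was not tested.

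The transcripts with the smallest p-values are named by identifier, 2 for each direction, among those with no overlap between the replicates of either day and a mean of 5 RPKM or more on the day of the higher level (1246 risen and 905 fallen transcripts met this). ENSBTAT00000005529, of 2063 nucleotides, had no read in day 13 replicates 1 to 4 and 1 read, or 0.393 RPKM, in replicate 5. On day 16 it stood at 60.6, 56.2 and 39.2 RPKM. Every day 16 value was thus far above every day 13 value (log2 change 5.61 ± 0.36 SE, 95% interval 4.81 to 6.41; limma, adjusted p = 7.59e-05). The fitted change depends on the pseudocount: it was 6.52 with a pseudocount of 0.5 and 8.54 with 0.1. Its reads rose from 1 in 23674872 to 1326 in 11820697, a ratio of 2656 with a 95% exact counting interval of 476 to 104975. That interval leaves out the spread between replicates. The only day 13 read lay in the library of lowest depth, and the ratio of the mean RPKM of the 2 days was 661.

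ENSBTAT00000016091, of 539 nucleotides, had no read in any of the 5 day 13 replicates and stood at 28.2, 30.5 and 33.1 RPKM on day 16. The SD of the 3 day 16 values was 2.44 RPKM. The day 16 mean of 30.6 RPKM was 130.2 times a floor of 0.235 RPKM, equal to 3 reads in all day 13 libraries together. This multiple is not a lower bound. For 0 reads on day 13 against 197 on day 16, the 95% exact counting interval of the read ratio began at 106. That interval leaves out the spread between replicates. The fitted log2 change was 4.98 (limma, adjusted p = 7.59e-05), with a higher level in 3 of 3 day 16 replicates. This fitted change depends on the pseudocount. Both risen transcripts passed the filter on low values through day 16 alone.

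ENSBTAT00000005100, of 2357 nucleotides, was the strongly expressed member of the 4. It stood at 480, 304, 376, 282 and 363 RPKM on day 13 and at 12.5, 17.3 and 22.7 on day 16. The 2 groups did not come near each other, and the day 13 mean of 361 ± 77.3 RPKM (SD, n = 5) was 20.6 times the day 16 mean of 17.5 ± 5.14 (n = 3; log2 change -4.30 ± 0.27 SE, 95% interval -4.91 to -3.70; limma, adjusted p = 7.59e-05).

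ENSBTAT00000052779, of 2310 nucleotides, stood at 37.3, 35.3, 51.7, 61.5 and 62.2 RPKM on day 13. On day 16 it was at 0.706 and 0.545 RPKM in replicate 1 and in replicates 2 and 3, with no read in replicate 4. This transcript passed the filter on low values through day 13 alone. The day 13 level was nearly lost in all 3 day 16 replicates (log2 change -5.16 ± 0.33 SE, 95% interval -5.89 to -4.42; limma, adjusted p = 7.59e-05). This fitted change depends on the pseudocount too, at -5.83 with 0.5 and -7.02 with 0.1. Day 13 replicate 5, at 363 RPKM for ENSBTAT00000005100 and 62.2 RPKM for ENSBTAT00000052779, lay with the other day 13 replicates in both.

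On the days that the comparison did not use, the 4 named transcripts kept 2 patterns. The risen pair remained present on day 19: ENSBTAT00000005529 was at 10.97, 70.3, 11.7 and 48.9 RPKM and ENSBTAT00000016091 at 12.5, 42.7, 7.85 and 30.9 RPKM. Day 19 replicates 2 and 4 were the higher ones for both. Before day 13 the same pair was read unevenly. ENSBTAT00000005529 ranged from 0 to 18.7 RPKM on day 7 (median 3.14, n = 5) and from 0 to 21.0 on day 10 (median 1.47, n = 7), and ENSBTAT00000016091 from 0 to 9.46 and from 0 to 21.5 RPKM (medians 0.562 and 6.42). The fallen pair stayed low on day 19, at 13.9 to 29.7 RPKM for ENSBTAT00000005100 (median 21.6, n = 4) and at 0.324 to 1.05 for ENSBTAT00000052779 (median 0.711). ENSBTAT00000005100 had medians of 29.6 RPKM on day 7 and 99.3 on day 10, where it ranged from 13.5 to 306 RPKM. ENSBTAT00000052779 had medians of 2.74 and 11.1 RPKM on those days. Day 13 thus held the highest mean of all 5 days for both fallen transcripts and the lowest for both risen ones.

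**Figure D3:**
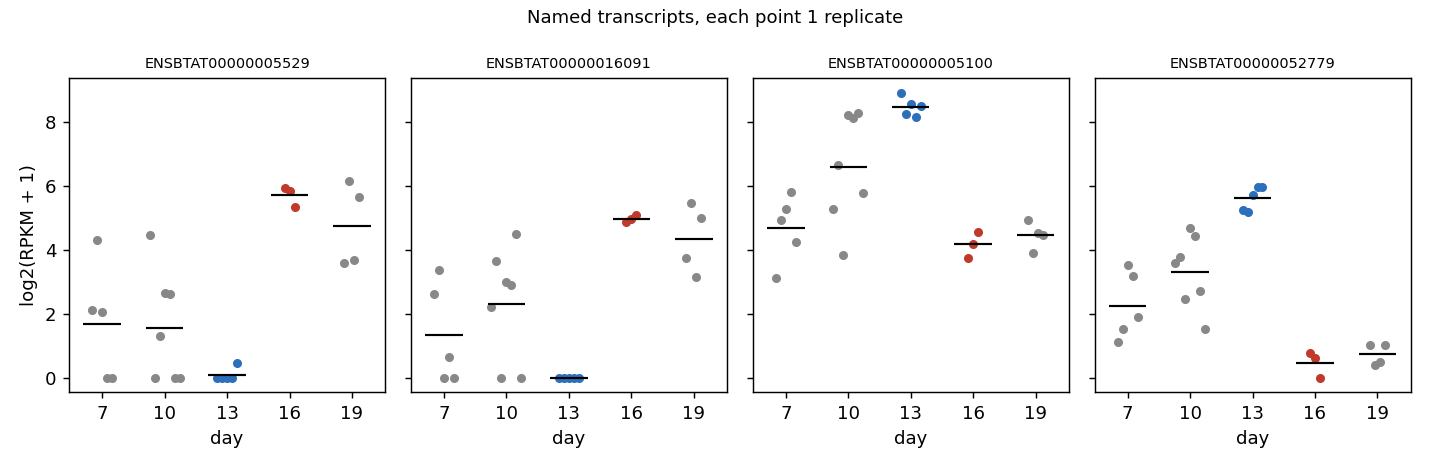
Level, as log2(RPKM + 1), of the 4 named transcripts on days 7, 10, 13, 16 and 19; each point is 1 replicate, the line is the mean, day 13 is blue and day 16 red. The day 13 and day 16 points do not overlap in any panel, as the choice of the 4 required. Day 19 lies near day 16 for the fallen pair, at medians of 21.6 and 0.711 RPKM.

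In the called sets, too, day 13 had the lowest median of the risen and the highest of the fallen. Among the risen transcripts the median log2 level was 0.68 on day 13 and 3.35 on day 16; it was 1.59 at day 7, 1.55 at day 10 and 2.29 at day 19. The medians of single replicates ran from 0.93 to 3.54 on day 7 and from 1.07 to 3.37 on day 10, the top values being those of day 7 replicate 1 and day 10 replicate 1. For the fallen transcripts the median was 3.90 at day 7, 3.88 at day 10 and 4.79 at day 13, then 3.12 at day 16 and 3.20 at day 19. Over all tested transcripts the medians lay between 3.16 and 3.34. Since the calls rest on days 13 and 16, these 2 days are set apart by the choice itself. On day 19, which took no part in the choice, the risen took 22.8 ± 2.97% of the reads (n = 4), against 7.83 ± 2.21% on day 7 (n = 5) and 9.70 ± 2.77% on day 10 (n = 7). Days 7 and 10 are superovulated pools, and stage and RNA preparation cannot be told apart in these shares.

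**Figure D4:**
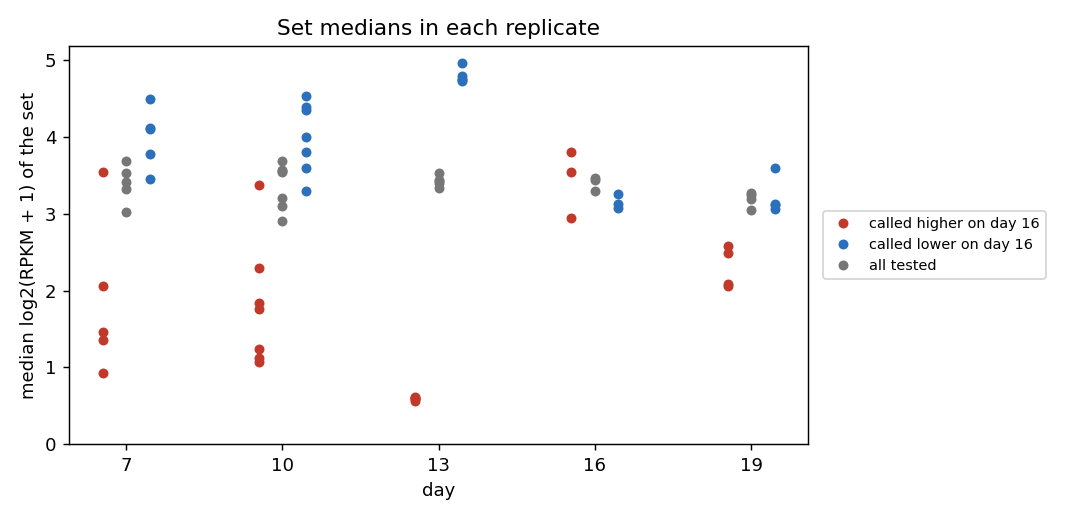
Median log2(RPKM + 1) of the 1881 risen (red), 1043 fallen (blue) and all 15671 tested transcripts (grey) in each replicate of the 5 days, 1 point per replicate. The risen set is lowest in the 5 day 13 replicates, at 0.56 to 0.61, and the fallen set highest there, at 4.73 to 4.97.

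Each replicate was placed between the day means by leaving it out and calling transcripts on the other 7 replicates. A place of 0 is the mean of the remaining day 13 replicates, and 1 that of the remaining day 16 replicates. The place describes levels and does not measure developmental progress, as stage and RNA preparation cannot be told apart. Day 13 replicates 1 to 4 had median places of 0.00 over the transcripts that rose and -0.01 to 0.13 over those that fell. Day 13 replicate 5 had a median place of 0.15 over 2527 risen and of 0.67 over 2221 fallen transcripts. Its transcripts did not share 1 place: 52.8% of the risen lay nearer than 0.25 to the day 13 mean or beyond it, and 25.9% lay past 0.75. Among the fallen these shares were 34.9% and 47.2%, where at most 4.21% lay past 0.75 in replicates 1 to 4. Of the fallen, 20.8% lay from 0.75 to 1.25, around the day 16 mean, and 26.4% lay past 1.25, below it (9.28% of the fallen lay there with no read). Replicate 5 thus lay near the day 13 mean in some changed transcripts, near the day 16 mean in others, and between or beyond these means in the remainder. It had no read in 14.3% of the fallen, against at most 0.351% in replicates 1 to 4, and its total reads were the lowest of the 8. Of the risen it had no read in 37.0%, against 37.8 to 40.6% in replicates 1 to 4. The part of depth in these places was not tested.

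Among day 16 replicates, the average of replicates 2 and 3 was nearest to day 13 in the transcripts that rose, at a median place of 0.78 (1399 transcripts), with replicate 1 at 0.98 and replicate 4 at 1.06. In the transcripts that fell, replicate 1 was nearest to day 13 at 0.75, with 0.92 for replicate 4 and 1.00 for replicates 2 and 3. The order of the 3 filaments thus differed between rises and falls.

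**Figure D5:**
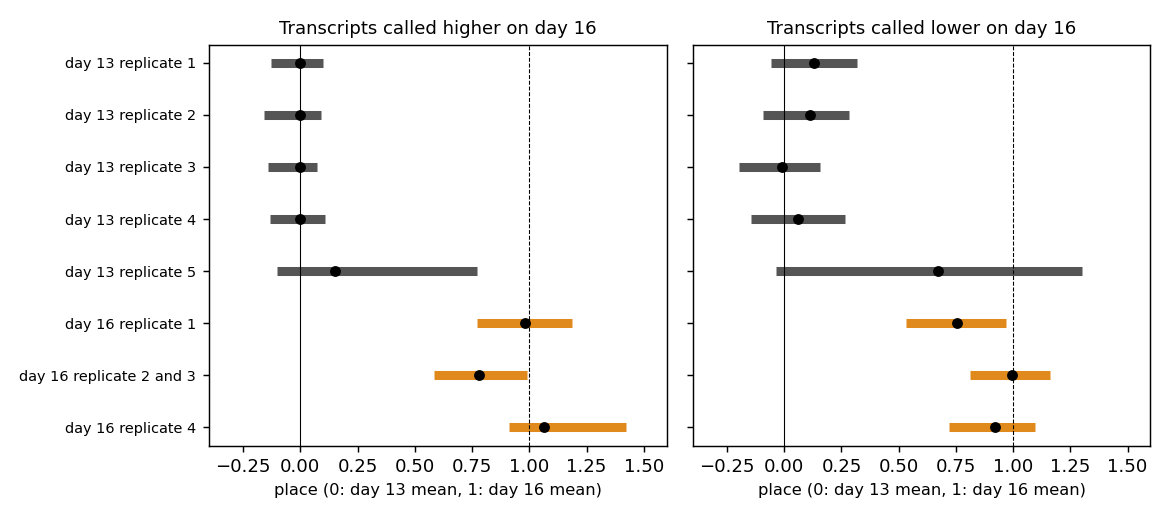
Place of each left-out replicate between the mean of day 13 (0) and that of day 16 (1) over the transcripts called without it, for rises (left) and falls (right); points are medians and bars span the quartiles, grey for day 13 and orange for day 16. Day 13 replicate 5 has a median of 0.67 in the falls, while replicates 1 to 4 lie at -0.01 to 0.13.

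Leaving out day 13 replicate 5 raised the count of changed transcripts to 4748, with 2527 higher and 2221 lower, and brought rises and falls near balance. Of the 2924 changed transcripts, 2869 were among these 4748 with the same direction. Replicates of the 2 days did not overlap in 2386 tested transcripts with day 16 above (15.2%) and in 1883 with day 16 below (12.0%); without replicate 5 it was 3172 (20.2%) and 3656 (23.3%). The within-day SD of a transcript had a median of 0.59 on day 13 with replicate 5, 0.36 without it and 0.38 on day 16, on the log2 scale. The count was 1916 without day 16 replicates 2 and 3, and 1821 without day 16 replicate 4. A single model over all 5 days called 1542 transcripts, 1053 higher and 489 lower. In each of the 8 comparisons that left out 1 replicate, 1189 of the 1881 rises (63.2%) and 399 of the 1043 falls (38.3%) were called with the same direction. Those also called in each of 9 other scalings and models were 714 rises (38.0%) and 299 falls (28.7%).

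For most other transcripts, a change was neither called nor bounded. The 95% interval of the log2 change lay within 1 either way for 2105 transcripts (13.4%), for which a change beyond that size is outside the interval. For 10642 transcripts (67.9%) that were not called, the interval reached past 1. The median width of the interval on each side was 0.93. Above 50 RPKM 26.6% of transcripts had an interval within 1, and below 5 RPKM 2.6% did. A lack of a call is therefore not evidence of an equal level at weakly read transcripts.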

How the data were processed

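The authors deposited 1 RPKM value per Ensembl bovine transcript identifier and library; the submitters' processing notes list CASAVA, with neither role nor version. No source used here names the aligner, the build or the annotation. Whole reads, transcript lengths and totals were recovered from the exact ratios of the deposited RPKM values: of the nonzero values, 100.0% gave whole reads to within 1e-06. Intervals for reads cover counting error only. Groups follow the sample labels. The days 13 and 16 were fitted alone with limma (version 3.58.1, R 4.3.3; robust eBayes with a trend) on log2(RPKM + 1), which understates changes of weak transcripts, and tested on simulated data. For values by day, 24 replicates were used, leaving out 3 libraries whose file carries a title of another day. From the last day 16 sample on, through days 19 and 7, each file carries the title of a neighbouring sample: replicate numbers there name the sample a file is deposited under, and which conceptus or pool it holds is uncertain. The file of the last day 7 sample carries the title of the left-out day 16 sample and is not used. No identifier matched a gene name, so no gene list was analysed; 4 identifiers are named by smallest p. The comparison, its members and lists were chosen with earlier results of these data known. Descriptive counts of presence on other days, place between the days and calls kept were chosen after values were seen. Library measures were compared by exact permutation tests, whose convention was changed after its first p-values were seen. Alternatives changed the pseudocount, filter, scaling, model, depth, thresholds and replicates; unless the filter itself changed, the same 15671 transcripts were tested.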

Additional observations from a re-analysis of the deposited data

Results flagged for a closer look

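A replicate far outside the rest of its day was looked for in library measures, in the shares of reads of the called sets and in the 4 named transcripts, on days with 4 to 7 replicates. It was found in 8 of 28 searches, which are not independent. By chance about 1 search in 20 gives one if values are normally distributed. Searches in which most replicates have no read do not meet this, so no excess is read from the count. Day 13 replicate 5 had 14024 transcripts with a read at equal depth, against 16068 to 16154 in the other 4. It also had 9.43% of its reads in the risen transcripts, against 3.14 to 3.90%, and 0.393 RPKM of ENSBTAT00000005529, which is 1 read, against no read in the other 4.

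Other flags concerned reads in the fallen transcripts on days outside the comparison. Day 7 replicate 5 had 41.2% (7.08 to 13.3% in the others), day 10 replicate 7 had 44.4% (6.91 to 15.3%) and day 19 replicate 1 had 8.80% (4.03 to 4.14%). The 92-nucleotide transcript is among the fallen (limma log2 change -2.26, adjusted p = 0.0141). Without it, the fallen took 6.81 to 10.6% on day 7, 6.66 to 10.8% on day 10 and 3.90 to 5.76% on day 19. Day 7 replicate 2 had 18.7 RPKM of ENSBTAT00000005529 (0 to 3.36 in the others) and day 10 replicate 1 had 21.0 RPKM (0 to 5.32).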

How the results depend on the processing

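The main limits are 3 day 16 replicates, 1 day 13 replicate that stands apart, and depth. No paired analysis was possible because the labels give no replicate numbers shared by the 2 days. Of 26 alternatives, the count of 2924 changed transcripts stayed within 1.5 times in 19. It was 1922 with at least 5 RPKM (967 higher, 955 lower), 4866 with replicate weights (2554 higher, 2312 lower; day 13 replicate 5 weighed 0.131), 1542 with all 5 days in one model (1053 higher, 489 lower) and 1320 with a log2 change of at least 2 (1014 higher, 306 lower). Leaving out 1 replicate gave 1821 (day 16 replicate 4), 1916 (day 16 replicates 2 and 3) and up to 4748 (day 13 replicate 5). With day 16 replicate 5 kept as labelled the count was 2634, with 1335 higher and 1299 lower, and voom on recovered reads gave 3563. The number of main calls that took the opposite direction was 0 in all 26. The 4 named transcripts kept their direction and call in all 26, with adjusted p of at most 7.25e-04.

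The difference in transcripts with a read at equal depth was 3380; it was 2277 with day 16 replicate 5 kept as labelled (adjusted p = 0.0794) and 2961 to 3746 leaving out 1 replicate (3494 without day 13 replicate 2). The difference in the share of the 100 most abundant was 4.82 to 7.26 percentage points leaving out 1 replicate (5.49 without day 13 replicate 3). That in reads of transcripts under 300 nucleotides was -0.814 to -0.477 leaving out 1 replicate (-0.646 without day 16 replicates 2 and 3), and 0.00768 without the 92-nucleotide transcript. Its main value, -0.666, had an adjusted p of 0.0476 in the exact permutation test, but of 0.0952 when regroupings were counted by the size of the difference. That convention was run first and replaced after its p-values were seen, so it was added as an alternative with the data known; the other 3 measures stayed on their side of 0.05 under it. The difference in mean transcript length was -255 to -163 nucleotides leaving out 1 replicate, and -218 without that transcript (adjusted p = 0.0476). With 1 replicate left out, the exact test with the smaller tail taken 2 times cannot go below p = 0.0571 (0.0952 for a day 16 replicate), so no measure could pass there; the other convention was not run without a replicate.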

Other observations

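The day 16 library left out of the comparison, replicate 5, whose file carries the title of a day 19 sample, can be placed on the same scale from day 13 (0) to day 16 (1). Over the 1881 risen transcripts its median place was 0.26 (quartiles 0.00 and 0.77), outside the 0.78 to 1.06 of the other day 16 replicates, and over the 1043 fallen it was 1.08. At equal depth 14666 of its transcripts had a read, below the 18348 to 19829 of day 16. The risen transcripts took 22.9% of its reads and the fallen 3.96%. Of the named transcripts, ENSBTAT00000005529 stood at 30.0 RPKM and ENSBTAT00000016091 at 17.8 RPKM there, and ENSBTAT00000005100 and ENSBTAT00000052779 at 16.1 and 0.0848 RPKM.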
